A study of Rattus norvegicus with 6 samples.

Results

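Neurotrophins are secreted growth factors that keep neurons alive and shape dendrites and synapses, and 6 genes of this ligand and receptor system were followed here: the ligands Bdnf and Ntf3 and the receptors Ntrk2, Ntrk3, Ngfr and Sort1. They were chosen by symbol from the 17066 genes of a table of FPKM (fragments counted on a gene, scaled to transcript length and to the fragments mapped in the library). All 6 had a row, 5 had values above 0, and the same 5 could be tested. The libraries came from primary cultures of hippocampal neurons of Sprague-Dawley rat embryos at embryonic day 18, infected with lentivirus at day 5 or 6 in vitro and harvested at day 14. The control cultures expressed EGFP alone, the CCNY-WT cultures CCNY-WT-EGFP for overexpression of Cyclin Y, and the CCNY-shRNA cultures CCNY-shRNA-EGFP for its knockdown, so that every culture carried a lentivirus with EGFP. Each condition had 2 libraries, and because nothing in the labels says that these were separate cultures, the spread between them may be technical.

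In this system the mature ligands bind Trk receptor kinases, BDNF mainly TrkB (encoded by Ntrk2) and NT-3 (encoded by Ntf3) mainly TrkC (encoded by Ntrk3), which signal through Ras and MAP kinase, PI3 kinase and phospholipase C. The p75 receptor (Ngfr) binds all neurotrophins and, together with sortilin (Sort1), binds their uncleaved proforms and can signal cell death. In the hippocampus BDNF and TrkB are known for their part in long-term potentiation, and the study asked which transcripts respond to Cyclin Y, a postsynaptic cyclin with a part in the same plasticity.

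Ccny, the targeted gene, had an FPKM of 43.1 and 42.3 with EGFP, 108 and 109 with CCNY-WT and 5.98 and 6.19 with CCNY-shRNA. Relative depth, estimated from the steps in which low FPKM values rise, ranged from 0.818 to 1.33 over the libraries, with EGFP replicate 1 set to 1. The genes with an FPKM of 1 or more numbered 9955 to 10002 in the libraries. The absolute number of fragments per library was not known. The 10 neuronal markers summed to between 5463 and 5745 FPKM in every library, led by Syp (1537 to 1756) and Stmn2 (938 to 1019). Glial markers were also present. The 8 astrocyte markers analysed, led by Aldoc and Gfap, summed to 537 and 577 with EGFP, 570 and 565 with CCNY-WT and 469.8 and 542 with CCNY-shRNA. The 9 markers of the oligodendrocyte lineage, led by Olig1 and Mbp, summed to between 47.3 and 57.7, with Sox10 at 0 in all libraries. All 8 microglial markers lay under 1 in every library, with Aif1 and Cx3cr1 at 0. Of the 7 vascular and meningeal markers, Lum and Dcn carried the sum of 63.3 to 75.1, 5 lay under 1 throughout and Cldn5 was at 0. Of the 4 markers of Schwann cells and neural crest, only Egfl8 exceeded 1 in any library. In bulk libraries such as these, fewer cells of a type and less RNA per cell cannot be told apart.

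Of the receptors, Sort1 had the highest FPKM, followed by Ntrk2 and Ntrk3, with the ligand Ntf3 and the receptor Ngfr below them. In EGFP the mean FPKM was 113 ± 4.58 (SD, n = 2) for Sort1, 80.5 ± 1.49 for Ntrk2, 56.5 ± 0.634 for Ntrk3, 13.2 ± 0.812 for Ntf3 and 1.54 ± 0.0581 for Ngfr. These levels lay above those of 94.2%, 91.7%, 88.4%, 66.0% and 44.0% of all genes in the table. The order was the same in all 6 libraries, and the range of each gene over the 6 libraries did not overlap that of the next, the closest being Sort1 at 82.7 to 117 and Ntrk2 at 67.2 to 81.5. The FPKM of Ntrk2 was 50.2 and 54.3 times that of Ngfr in EGFP.

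Bdnf was listed at 0 in all 6 libraries. The same reading was given for 3583 genes, or 21.0% of the table. Among the genes looked up here it was shared by Rhoa, a GTPase used by nearly all cells and also a partner of p75. It was also shared by the cell type markers Sox10, Aif1, Cx3cr1 and Cldn5. An entry of 0 can be a failed estimate or an absent transcript. Which of these holds was not tested, and no level, fold or test is given for Bdnf. The gene has several alternative first exons, and RefSeq windows were at hand for 6 of its starts (GRCr8, a later build than that of the FPKM values). The window shown here was the only one of the 6 with ACGTCA, the last 6 letters of the cAMP response element TGACGTCA, in capitals below. It runs from 250 bases before to 50 bases after the start, at chr3:116637608-116637907 on the plus strand.
Bdnf: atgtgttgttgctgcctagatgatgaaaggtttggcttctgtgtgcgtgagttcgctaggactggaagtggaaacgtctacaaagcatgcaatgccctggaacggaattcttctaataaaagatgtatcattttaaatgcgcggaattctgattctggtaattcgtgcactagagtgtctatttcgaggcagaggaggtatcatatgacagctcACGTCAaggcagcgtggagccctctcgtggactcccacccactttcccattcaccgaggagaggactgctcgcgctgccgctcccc

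ACGTCA, read on both strands, was present in 7.94% of 33469 such windows of the rat genome, and the full element TGACGTCA, which contains it, in 1.83%. A match of letters is a description and does not show that a factor binds there.

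**Figure D1:**
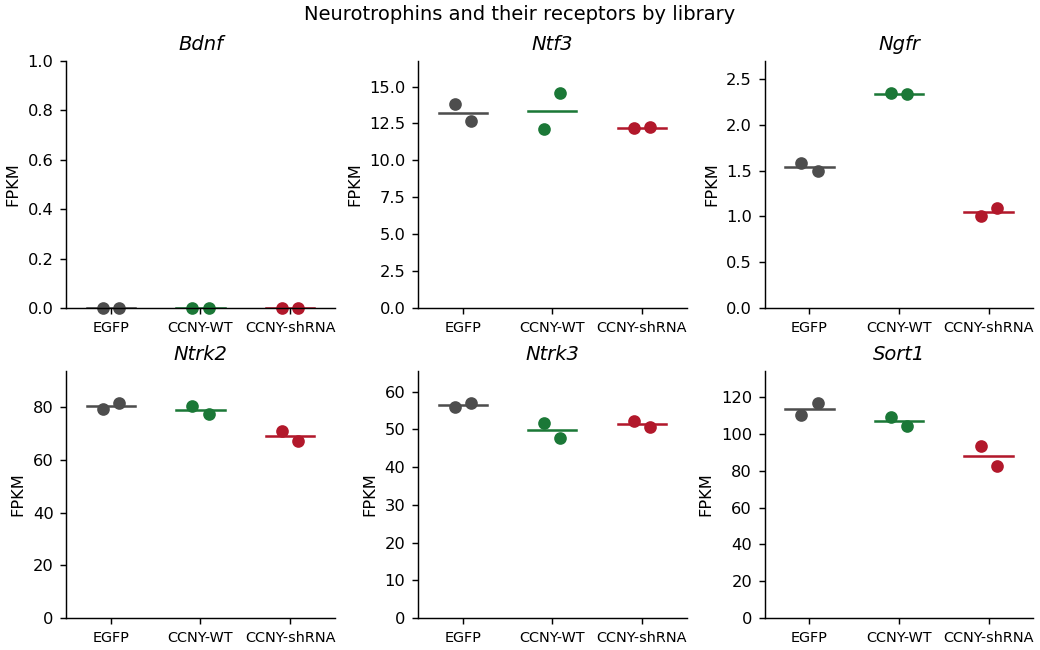
FPKM of the 6 genes (vertical axis, from 0, on a scale of its own for each gene) in the 2 libraries of EGFP, CCNY-WT and CCNY-shRNA; points are libraries and lines are means. Ngfr was highest in CCNY-WT (2.34 and 2.35) and lowest in CCNY-shRNA (1.0002 and 1.09), Sort1 and Ntrk2 were lowest in CCNY-shRNA, and Bdnf was listed at 0 throughout.

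None of the 5 genes tested passed an adjusted p of 0.05 with limma in any comparison. In CCNY-WT, 0 of 5 passed, against 0.00982% of the 10188 genes tested, which was Ccny alone. At an unadjusted p under 0.05, 1 of the 5 was higher and 1 lower, against 3.83% and 3.00% of all genes. In CCNY-shRNA, 0 of 5 passed, against 0.746% of all genes, and 3 were lower at an unadjusted p under 0.05 (Ngfr, Ntrk2 and Sort1), against 9.36% of all genes. Between CCNY-shRNA and CCNY-WT directly, 0 of 5 passed, against 0.216%, and the same 3 genes were lower at an unadjusted p under 0.05, against 7.12%. The same 3 had both CCNY-shRNA libraries below both CCNY-WT libraries, against 21.9%. By the size thresholds of the study, a difference in mean log2 FPKM of 0.3 in overexpression and 0.33 in knockdown, 1 of 5 genes was higher in CCNY-WT (Ngfr), against 4.59% of all genes tested, and 2 of 5 were lower in CCNY-shRNA (Ngfr and Sort1), against 7.59%. All 5 genes had both CCNY-shRNA libraries below both EGFP libraries, against 24.5% of all genes tested, and their median log2 change was -0.22, against 0.00 over all genes tested. In CCNY-WT 1 of 5 genes lay above EGFP without overlap (Ngfr) and 2 below (Ntrk3 and Sort1), against 20.3% and 19.2% of all genes tested, and the 5 had a median log2 change of -0.03, against 0.00. Both comparisons share the EGFP libraries.

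Ntf3 encodes NT-3, the ligand of TrkC. Its FPKM was 13.8 and 12.7 with EGFP, 12.1 and 14.5 with CCNY-WT and 12.2 in both CCNY-shRNA libraries. The CCNY-WT libraries lay on either side of the EGFP libraries, and the CCNY-shRNA libraries lay just below them. The log2 change was 0.01 ± 0.119 (standard error) in CCNY-WT (95% interval -0.27 to 0.28, limma adjusted p = 0.994) and -0.12 ± 0.119 (standard error) in CCNY-shRNA (95% interval -0.39 to 0.16, limma adjusted p = 0.656). Between CCNY-shRNA and CCNY-WT the log2 change was -0.12 (limma adjusted p = 0.740). The intervals against EGFP leave room for a fold between 0.830 and 1.22 in CCNY-WT and between 0.762 and 1.12 in CCNY-shRNA. Of the 3 RefSeq windows of Ntf3, the most downstream start is shown here, since it holds 2 matches of the GC box GGGCGG, 1 on each strand, in capitals below, where the other windows hold 1 (GRCr8, chr4:160668858-160669157, minus strand).
Ntf3: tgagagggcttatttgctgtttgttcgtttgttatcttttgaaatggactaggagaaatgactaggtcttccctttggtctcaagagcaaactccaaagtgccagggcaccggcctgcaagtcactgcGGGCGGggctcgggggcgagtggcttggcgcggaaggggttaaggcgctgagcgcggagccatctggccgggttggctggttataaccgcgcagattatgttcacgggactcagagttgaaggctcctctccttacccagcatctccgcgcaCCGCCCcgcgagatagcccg

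GGGCGG on either strand was present in 33.1% of all windows. The GC content of the Ntf3 window was 58.0%, against a median of 51.7% over all windows.

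Ntf4, encoding NT-4, the other ligand of TrkB, had 2 fragments in the second EGFP library, 1 in the second CCNY-shRNA library and 0 elsewhere, or a multiple of these smallest whole numbers. Its highest FPKM was 0.270, so it stayed under the filter and was not tested.

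Ntrk2 encodes TrkB, the receptor of BDNF and NT-4, and its gene also gives a form without the kinase, known from astrocytes, which a single value per gene does not separate from the full-length receptor. Its FPKM was 79.4 and 81.5 with EGFP, 80.5 and 77.6 with CCNY-WT and 71.2 and 67.2 with CCNY-shRNA. The CCNY-shRNA libraries were below all 4 others, and the CCNY-WT and EGFP libraries overlapped. The log2 change was -0.03 ± 0.0569 (standard error) in CCNY-WT (limma adjusted p = 0.955) and -0.22 ± 0.0569 (standard error) in CCNY-shRNA (unadjusted p = 0.00523, limma adjusted p = 0.113). The latter is a fold of 0.860, with a 95% interval of 0.785 to 0.942. Against CCNY-WT directly, the log2 change in CCNY-shRNA was -0.19 (standard error 0.0569, limma adjusted p = 0.268). Among the astrocyte markers, the glutamate transporters Slc1a2 and Slc1a3 were lower in CCNY-shRNA as well, with log2 changes of -0.32 and -0.24 (limma adjusted p = 0.0768 and 0.183). Of the 8 astrocyte markers 0 passed limma's adjusted threshold in CCNY-shRNA, against 0.746% of all genes tested. At an unadjusted p under 0.05, 0 were higher and 2 lower, these 2 transporters, against 9.2% and 9.36% of all genes tested. The other markers had log2 changes of -0.24 (Sox9), -0.20 (Gja1), -0.13 (Gfap), -0.11 (Aldoc), 0.04 (Aqp4) and 0.04 (S100b). The part of astrocyte RNA in the value of Ntrk2 was not tested.

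Ntrk3 encodes TrkC. Its FPKM was 56.0 and 56.9 with EGFP, 51.8 and 47.8 with CCNY-WT and 52.2 and 50.5 with CCNY-shRNA. Both conditions lay below EGFP without overlap and overlapped each other. The log2 change was -0.18 ± 0.0631 (standard error) in CCNY-WT (unadjusted p = 0.0208, limma adjusted p = 0.725) and -0.14 ± 0.0631 (standard error) in CCNY-shRNA (limma adjusted p = 0.297). Between CCNY-shRNA and CCNY-WT it was 0.05 (limma adjusted p = 0.831). The FPKM of Ntrk2 relative to that of Ntrk3 within a library was 1.42 and 1.43 with EGFP, 1.55 and 1.62 with CCNY-WT and 1.36 and 1.33 with CCNY-shRNA. The 3 conditions did not overlap in this ratio. It is given as a description and was not tested, and an exact two-sided permutation test of 2 against 2 libraries could not go below p = 0.333.

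Ngfr encodes p75, the neurotrophin receptor of the tumour necrosis factor receptor family. Its FPKM was 1.58 and 1.50 with EGFP, 2.35 and 2.34 with CCNY-WT and 1.0002 and 1.09 with CCNY-shRNA. The gene was thus higher than EGFP in CCNY-WT and lower in CCNY-shRNA, with no overlap among the 3 conditions. The log2 change was 0.60 ± 0.191 (standard error) in CCNY-WT (unadjusted p = 0.0139, limma adjusted p = 0.725) and -0.56 ± 0.191 (standard error) in CCNY-shRNA (unadjusted p = 0.0193, limma adjusted p = 0.179). These are folds of 1.52 and 0.677. The difference between CCNY-shRNA and CCNY-WT was -1.17 (standard error 0.191, 95% interval -1.61 to -0.72, unadjusted p = 3.22e-04, limma adjusted p = 0.0797), a fold of 0.446. The study names Ngfr among genes it selected on these libraries, like Sort1, Crh, Mmp9, Prkca, Prkcd, Nr4a1, Egr1 and Shc4. The directions of these genes in these libraries are therefore not independent evidence. The study also measured Crh and Mmp9 by quantitative PCR, which was not analysed here.

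The values of Ngfr may rest on few fragments. The smallest whole numbers in the ratio of its depth-corrected values were 29 and 30 with EGFP, 57 and 40 with CCNY-WT and 15 and 23 with CCNY-shRNA, which lay within 0.02 of the measured ratios; the true numbers are these or a multiple of them. If they are these, the 95% Poisson interval of the FPKM was 1.06 to 2.27 and 1.01 to 2.14 in EGFP, 1.78 to 3.04 and 1.67 to 3.18 in CCNY-WT, and 0.560 to 1.65 and 0.690 to 1.63 in CCNY-shRNA. The intervals of EGFP overlapped those of both conditions, whereas those of CCNY-WT lay above those of CCNY-shRNA. The SD of the CCNY-WT libraries, 0.0049, was smaller than this counting error. Its CCNY-shRNA values also lay at or just above the floor of 1 that was set before the logarithm. With log2(FPKM + 1) the log2 change in CCNY-shRNA was -0.31, which is under the size threshold of 0.33.

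**Figure D2:**
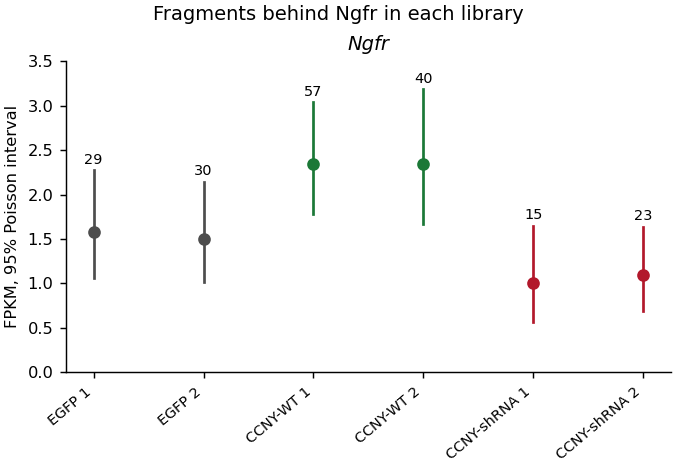
FPKM of Ngfr in each library (points, vertical axis from 0), with the 95% Poisson interval of the fragments behind them (lines) and the smallest whole number of fragments above each line. The intervals of CCNY-WT (57 and 40 fragments) lie above those of CCNY-shRNA (15 and 23), and those of EGFP (29 and 30) overlap both.

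Sort1 encodes sortilin, which sorts proneurotrophins inside the cell and binds them with p75 at the surface. Its FPKM was 110.1 and 117 with EGFP, 109 and 104 with CCNY-WT and 93.6 and 82.7 with CCNY-shRNA. The CCNY-shRNA libraries were below all 4 others, and the CCNY-WT libraries lay just below EGFP. The log2 change was -0.37 ± 0.0716 (standard error) in CCNY-shRNA (unadjusted p = 9.95e-04, limma adjusted p = 0.0672) and -0.09 ± 0.0716 (standard error) in CCNY-WT (limma adjusted p = 0.858). The former is a fold of 0.776, with a 95% interval of 0.692 to 0.871. Its side of the threshold turned on 1 library: without CCNY-shRNA replicate 1 the log2 change was -0.46, at a limma adjusted p of 0.0400, whereas the adjusted p ranged from 0.0400 to 0.320 over all 15 alternatives. Against CCNY-WT directly, the log2 change was -0.28 (standard error 0.0716, limma adjusted p = 0.216). The RefSeq window at the start of Sort1, the gene with the smallest p of the 5 against EGFP, has a GC content of 72.3% and 33 CG steps, and holds GGGCGG once, in capitals below (GRCr8, chr2:198612245-198612544, plus strand).
Sort1: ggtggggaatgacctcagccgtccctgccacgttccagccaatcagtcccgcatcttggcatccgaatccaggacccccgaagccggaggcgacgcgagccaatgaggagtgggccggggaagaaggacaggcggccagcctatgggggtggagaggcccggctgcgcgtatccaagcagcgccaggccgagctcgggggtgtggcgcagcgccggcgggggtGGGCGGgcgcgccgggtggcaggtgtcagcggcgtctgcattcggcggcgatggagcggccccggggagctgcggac

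Neither TGACGTCA nor TATAAA, the latter present in 14.2% of all windows, was found in it on either strand. No windows were at hand for Ngfr, Ntrk2 and Ntrk3.

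**Figure D3:**
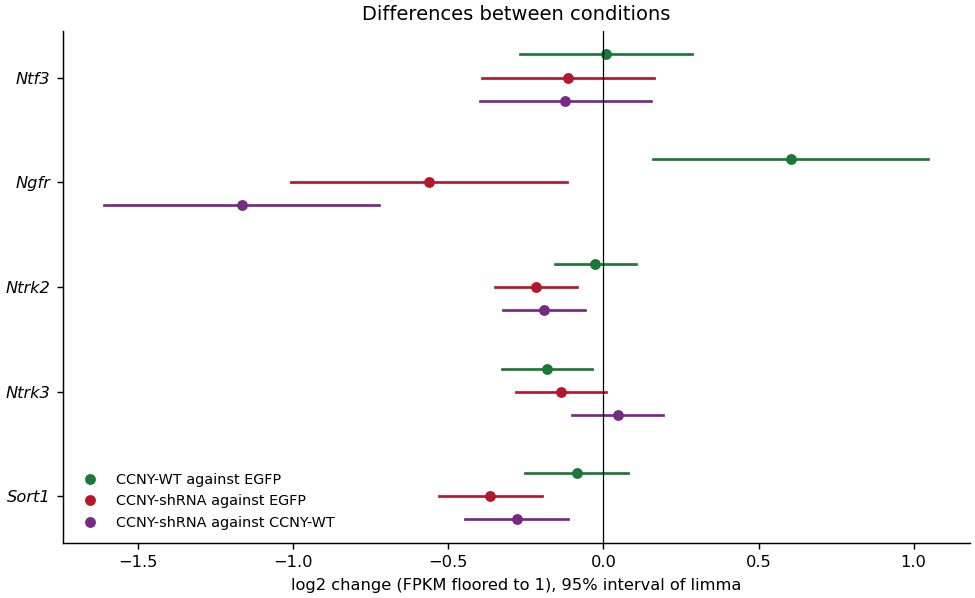
Log2 change of FPKM floored to 1 (horizontal axis) for the 5 genes tested, in the 3 comparisons of conditions; points are limma estimates and lines their 95% intervals, not adjusted for the number of genes. Ngfr lies at 0.60 in CCNY-WT and at -0.56 in CCNY-shRNA, while Ntrk2 and Sort1 lie near 0 in CCNY-WT and at -0.22 and -0.37 in CCNY-shRNA.

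The genes around these receptors were followed in 5 lists written from general knowledge, with earlier results of these data known. Among sortilin relatives and partners of p75, 12 of 14 genes could be tested. In CCNY-shRNA 0 passed limma's adjusted threshold, with 1 higher and 3 lower at an unadjusted p under 0.05, against 9.2% and 9.36% of all genes tested, and the median log2 change was 0.02. Sorl1, a sorting receptor of the same family, had an FPKM of 9.25 and 9.40 with EGFP, 8.38 and 7.80 with CCNY-WT and 5.73 and 5.66 with CCNY-shRNA. From EGFP to CCNY-shRNA the log2 change was -0.71 ± 0.122 (standard error; limma adjusted p = 0.0527), and over 15 alternatives the adjusted p ranged from 0.0432 to 0.284, passing with log2(FPKM + 1), with log2(FPKM + 0.1) and with a filter on mean FPKM. Sorcs3 was at 20.9 and 21.7 with EGFP against 16.2 and 17.6 with the shRNA, a log2 change of -0.33 (limma adjusted p = 0.117). Sorcs2, which like sortilin binds proBDNF with p75, was at 108 and 109 with EGFP against 119.7 and 113 with the shRNA, a log2 change of 0.10 (limma adjusted p = 0.362). In CCNY-WT, 0 of the 12 passed, 0 were higher and 1 lower at an unadjusted p under 0.05, against 3.83% and 3.00% of all genes tested, and the median was -0.07.

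Of 12 genes that cleave or sort the proforms, 8 could be tested. The protease Furin was at 21.6 and 24.4 FPKM in EGFP and 19.7 and 20.1 in CCNY-shRNA, and the neuronal convertase Pcsk2 at 227 and 237 with EGFP and 231 and 205 with the shRNA. In CCNY-shRNA 0 of the 8 passed the adjusted threshold, with 0 higher and 1 lower at an unadjusted p under 0.05, against 9.2% and 9.36% of all genes tested, and a median log2 change of -0.12. The lower gene was Pcsk1, another convertase, at 31.4 and 35.3 with EGFP and 29.6 and 27.8 with the shRNA (log2 change -0.22, limma adjusted p = 0.238). In CCNY-WT 0 passed and 1, Plat, was higher at an unadjusted p under 0.05, with 0 lower, against 3.83% and 3.00% of all genes tested, and a median of -0.03. Plat encodes tissue plasminogen activator, which makes the plasmin that can cleave proBDNF. Its FPKM was 16.7 and 17.3 with EGFP, 19.2 and 21.5 with CCNY-WT and 15.2 and 15.6 with CCNY-shRNA. The matrix protease Mmp9 lay under 1 in every library, at 0.179 and 0.0548 with EGFP, 0.857 and 0.705 with CCNY-WT and 0.511 and 0.726 with CCNY-shRNA.

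All 16 Trk adaptors with values could be tested, and 0 passed the adjusted threshold in either condition. In CCNY-shRNA 3 were higher and 2 lower at an unadjusted p under 0.05, against 9.2% and 9.36% of all genes tested, with a median of 0.04. In CCNY-WT 1 was higher and 0 lower, against 3.83% and 3.00%, with a median of -0.01. The adaptors that differed by size had low FPKM values. Shc4 was at 2.39 and 2.56 with EGFP and 1.95 and 1.12 with the shRNA (log2 change -0.74, limma adjusted p = 0.221). Shc1 was at 1.78 and 2.01 in EGFP, 2.41 in each CCNY-WT library, and 2.69 and 2.44 in CCNY-shRNA. Its log2 change was 0.35 in CCNY-WT and 0.44 in CCNY-shRNA (limma adjusted p = 0.767 and 0.251). Sh2b2 had a log2 change of 0.65 in CCNY-WT (limma adjusted p = 0.725) and Sh2b3 of 0.35 in CCNY-shRNA (limma adjusted p = 0.341).

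Of the kinase cascades below Trk receptors, 29 genes were tested, and 1, Prkca, fell past the adjusted threshold in CCNY-shRNA. Over all genes tested, 0.746% passed it in either direction. Prkca encodes protein kinase C alpha, a target of the phospholipase C branch, and is also among the genes the study selected on these libraries. Its FPKM was 90.0 in each EGFP library, 82.9 and 87.0 with CCNY-WT and 62.5 and 59.9 with CCNY-shRNA, a log2 change from EGFP to CCNY-shRNA of -0.56 ± 0.0556 (standard error; limma adjusted p = 0.0112). The adjusted p was 0.0856 without EGFP replicate 1 and 0.142 without EGFP replicate 2, with log2 changes of -0.56 in both, and it was 0.0992 with no filter on low values and 0.123 with eBayes without a trend. Camk4, a calcium-dependent kinase acting on CREB, was at 16.0 and 16.8 with EGFP and 13.1 and 11.5 with the shRNA (log2 change -0.42, limma adjusted p = 0.120). The median log2 change of the 29 genes was 0.03 in CCNY-shRNA, with 2 higher and 4 lower at an unadjusted p under 0.05, against 9.2% and 9.36% of all genes tested. It was -0.02 in CCNY-WT, with 2 higher and 0 lower, against 3.83% and 3.00%, and 0 past the adjusted threshold. In CCNY-WT the gene above EGFP past the size threshold was Rps6ka1 (log2 change 0.33, limma adjusted p = 0.725), and the one below was Prkcd (-0.32, limma adjusted p = 0.813). Prkcd was at 1.27 and 1.23 with EGFP, and its CCNY-WT values of 0.756 and 0.860 were set to the floor of 1, so that its log2 change reaches only to the floor and understates the difference in FPKM.

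Among 24 genes known to respond to BDNF, 0 passed the adjusted threshold in either condition. In CCNY-shRNA 1 was higher and 4 were lower at an unadjusted p under 0.05, against 9.2% and 9.36% of all genes tested, with a median of -0.09. In CCNY-WT 2 were higher and 2 lower, against 3.83% and 3.00%, with a median of 0.03. Between CCNY-shRNA and CCNY-WT directly, 0 passed the adjusted threshold. At an unadjusted p under 0.05, 7 were lower in that comparison, against 7.12% of all genes tested, and 1 was higher. Arc, an immediate early gene of synaptic activity, was at 29.0 and 28.5 with EGFP, 28.3 and 24.9 with CCNY-WT and 28.9 and 23.6 with CCNY-shRNA, so its libraries spread more within CCNY-shRNA than between the conditions. Nr4a1, an early response nuclear receptor, was at 14.2 and 14.7 with EGFP, 12.3 and 10.8 with CCNY-WT and 11.2 and 9.46 with CCNY-shRNA. Its log2 change was -0.33 in CCNY-WT and -0.49 in CCNY-shRNA (limma adjusted p = 0.725 and 0.105). Egr1 and Fosb, transcription factors of the early response, had log2 changes of -0.42 and 0.51 in CCNY-WT (limma adjusted p = 0.725 for both). Crh, the corticotropin-releasing hormone, was at 1.33 and 1.53 with EGFP, 2.14 and 2.15 with CCNY-WT and 0.815 and 0.722 with CCNY-shRNA, with both conditions on opposite sides of EGFP. Its log2 change was 0.59 in CCNY-WT and -0.51 in CCNY-shRNA (limma adjusted p = 0.725 and 0.219). Both CCNY-shRNA values of Crh were under the floor of 1 and were set to it, so that the latter change reaches only to the floor and understates the difference in FPKM.

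**Figure D4:**
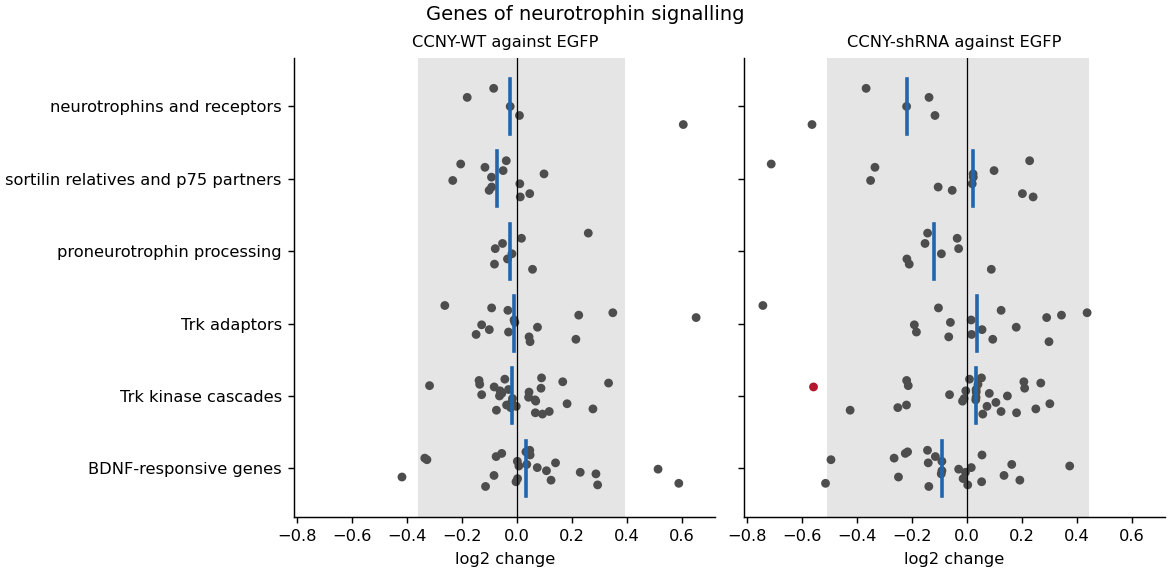
Log2 change against EGFP (horizontal axes, the same in both panels) for each tested gene of the neurotrophin lists, by list; points are genes, blue lines list medians, and the grey band the central 95% of all 10188 genes tested (-0.36 to 0.39 in CCNY-WT, -0.51 to 0.45 in CCNY-shRNA). The red point, Prkca at -0.56 in CCNY-shRNA, was the only one past an adjusted p of 0.05.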

How the data were processed

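Poly-A RNA of 6 libraries, 2 per condition, was sequenced in paired ends. The authors mapped the reads to rn4 with TopHat 2 and deposited 1 FPKM value per gene and library from Cufflinks; the submitters' processing notes also name Cufflinks 2.2.1, Bowtie2 2.1.0, SAMtools 0.1.19 and R 3.1.0. The annotation is not given in the sources used here. Absolute depth is unknown, as no read counts were at hand. Relative depth came from the steps of low FPKM values: of 1113 genes with a highest FPKM under 0.3, 96.0% gave whole fragments within 0.02, against 0.449% after a random shift. Intervals cover counting error only.

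FPKM was floored to 1 and log2-transformed. Genes at 1 FPKM or above in at least 2 libraries, 10188 in all, were fitted with limma 3.58.1 in R 4.3.3 (lmFit, contrasts.fit, eBayes with a trend) over the 6 libraries, and p-values were adjusted by Benjamini-Hochberg over these genes, with calls at 0.05. The fit was checked on simulated data. P-values measure only the spread between these libraries. Python 3.11.15, pandas 2.3.3, numpy 2.4.6, scipy 1.17.1 and matplotlib 3.10.9 handled tables and figures. Alternatives covered the offset, filter, scaling, estimate of the spread, a replicate block and leaving out each library; those for Sorl1, Prkca and Gad2 were added after seeing the data.

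The genes and lists were chosen with earlier results of these data known. Named were the 6 genes, Ntf4 and Ccny; from each pathway list the genes past the adjusted threshold and up to 4 per condition with the largest change past the size threshold and no overlap with EGFP; the 3 genes most like each tested gene; and of each marker list the 2 highest and those at 0. Sorcs2, Plat, Mmp9, Furin, Pcsk1, Pcsk2, Crk, Grb2, Kidins220, Arc, Slc1a2, Slc1a3, Sox9, Gja1, Aqp4, S100b, Gad1 and Gad2 are named outside this rule, after their values were seen. The values of some genes that this rule covers are not reported here, though the counts of their lists include them. List genes without a row, 7 in number, were not analysed here, nor were the authors' cuffdiff calls and the protein and PCR data.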

Additional observations from a re-analysis of the deposited data

Results flagged for a closer look

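In the pathway lists 1 gene, Prkca, and in the marker lists 1 gene, Gad2, differed between knockdown and overexpression by limma's test of that difference. Over all genes tested, 0.216% did so. Prkca, the kinase named above, was at 61.2 ± 1.83 FPKM (SD, n = 2) in CCNY-shRNA and 84.9 ± 2.90 in CCNY-WT, a log2 change of -0.47 (standard error 0.0556, limma adjusted p = 0.0252), lower in both CCNY-shRNA libraries. Gad2, which encodes a synthetic enzyme of GABA and stood in the list of neuronal markers, was at 170.4 and 173 FPKM with EGFP, 176 and 181 with CCNY-WT, and 129.5 and 129.0 with CCNY-shRNA, a log2 change between CCNY-shRNA and CCNY-WT of -0.46 (standard error 0.0494, limma adjusted p = 0.0165). Its log2 change from EGFP was -0.41 in CCNY-shRNA (limma adjusted p = 0.0226) and 0.05 in CCNY-WT (limma adjusted p = 0.880). The call against EGFP held in 8 of 15 alternatives, with an adjusted p from 0.0171 to 0.232, and was lost without either EGFP replicate, without either CCNY-WT replicate, with no filter on low values, with eBayes without a trend and with the compared groups only. Both calls between CCNY-shRNA and CCNY-WT were lost without either EGFP replicate or either CCNY-WT replicate, and that of Prkca also without CCNY-shRNA replicate 2. Both were also lost with no filter on low values, with eBayes without a trend and with the compared groups only. Over 15 alternatives the adjusted p ranged from 0.0197 to 0.269 for Prkca and from 0.0140 to 0.235 for Gad2. Gad1, the other GABA synthetic enzyme among the neuronal markers, had smaller log2 changes in CCNY-shRNA. They were -0.03 against EGFP (limma adjusted p = 0.813) and -0.12 against CCNY-WT (limma adjusted p = 0.411). Of the 5 neurotrophin and receptor genes tested, 0 passed the test between CCNY-shRNA and CCNY-WT, with 3 at an unadjusted p under 0.05.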

How the results depend on the processing

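Over 15 alternatives for each of the 5 genes in 3 comparisons, 225 in all, 218 kept the direction and the side of limma's adjusted threshold. Only Sort1 in CCNY-shRNA crossed it, at -0.46 without CCNY-shRNA replicate 1, in a range of -0.46 to -0.28 with each library left out. Signs reversed only among changes that were not called. Quantile normalization turned Ntf3 in CCNY-WT to -0.0012, and with each library left out this change ran from -0.12 to 0.14, that of Ntrk2 in CCNY-WT from -0.052 to 1.44e-05, and between CCNY-shRNA and CCNY-WT those of Ntf3 from -0.25 to 0.0073 and of Ntrk3 from -0.012 to 0.10. Genes past the size threshold in CCNY-shRNA numbered 1 in place of 2 with log2(FPKM + 1), and 1 to 2 with each library left out. In CCNY-WT they stayed at 1.

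The number of genes called over the whole table moved more. In CCNY-shRNA it was 76, but 2 with no filter on low values, 40 with upper quartile scaling (5 higher and 35 lower), 1 with eBayes without a trend, 25 with a fit of the compared groups only, and 1 to 86 with each library left out. Of the 76, 17 were higher and 59 lower; without CCNY-shRNA replicate 1 it was 40 and 46. The calls numbered 1 without either EGFP replicate, 18 and 26 without CCNY-WT replicates 1 and 2, and 39 without CCNY-shRNA replicate 2. In CCNY-WT it was 1, which was Ccny itself. The number in CCNY-WT was 3 both with log2(FPKM + 1) and when genes were filtered by their mean, and 5 in a fit of the compared groups only. Between CCNY-shRNA and CCNY-WT it was 22, but 2 with no filter, 1 without a trend, 8 with the compared groups only, and 1 to 22 with each library left out (8 without either EGFP replicate, 1 without either CCNY-WT replicate). Where 1 library of a condition was left, it was assumed to vary like the other groups. The cause was not tested.

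The labels do not say whether replicate numbers pair the libraries. The differences between replicates 1 and 2 were correlated over 10188 genes. The correlation was 0.0530 between EGFP and CCNY-WT, 0.0377 between EGFP and CCNY-shRNA and 0.0538 between CCNY-WT and CCNY-shRNA. Replicates of the same number thus shared little, which cannot show that they were prepared apart. With a replicate block the calls in CCNY-shRNA numbered 39 in place of 76, and 0 of the 5 genes changed sides.

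The fragments of Ngfr and Ntf4 are known only up to a multiple of the smallest whole numbers. Whether depth limits the values of these 2 genes was not tested. With 2 libraries a condition, the differences of about 0.2 in Ntrk2 and Ntrk3 were not separated from 0 after adjustment.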

Other observations

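For each gene tested, the genes with the most similar pattern were sought by Pearson's r of the log2 values over the 6 libraries, among genes with a mean FPKM of at least 5. For Ngfr these were Eml2, Wdr6 and Rasgrp1 (r = 0.994, 0.988 and 0.985). For Sort1 they were Slc6a6, the taurine transporter, Cpd and Gpm6a (r = 0.994, 0.992 and 0.992), and for Ntrk2 they were Syt11, Stox2 and Ptpdc1 (r = 0.997, 0.993 and 0.991). For Ntrk3 they were Dbp, a clock-controlled transcription factor, Sc5d, an enzyme of sterol synthesis, and Zdhhc17 (r = 0.997, 0.995 and 0.991), and for Ntf3 Trabd, Kcnip4 and Csrnp1 (r = 0.975, 0.968 and 0.962). An r over 0.9 was reached by 361 genes for Sort1, 348 for Ntrk2, 116 for Ntrk3, 91 for Ngfr and 30 for Ntf3, of about 8054 compared. The points are 6 libraries in 3 conditions, which share depth and scaling, and the values are descriptions without a test.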
